A study of Mus musculus with 8 samples.

Results

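The mESC lines described here had lost maternal SMCHD1, and DNA methylation over their CpG islands at day 2.5 of differentiation was set against that at day 2. The comparison used the 4 Smchd1 matΔ libraries of the 8 in the series, from 2 lines harvested at both days, and was paired by line. Islands were kept when they lay on an autosome and had a value in all 8 libraries, which left 7454 of the 13840 islands listed. The other islands were 6379 with no value in any library, 5 on the X chromosome and 2 on the Y chromosome.

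The cells were primary male mESC lines, each grown from a single blastocyst of a cross between C57BL/6-background mothers and Castaneus fathers, and were being directed towards neuromesodermal progenitors (NMPs). Smchd1 matΔ lines had the genotype Smchd1[del/+], with the floxed allele deleted in the growing oocyte by Zp3-Cre, so that the egg was without SMCHD1 protein while the paternal allele stayed intact. Smchd1 wt lines, which served for comparison, carried the floxed allele undeleted over a wild-type paternal allele (Smchd1[fl/+]). All lines were grown in basic FGF from the start of differentiation, and the Wnt activator CHIR99021 was added at day 2, so that day 2.5 is the first harvest after Wnt activation. A genotype is represented by 2 lines, and line-specific properties cannot be told apart from genotype beyond their spread. Bulk DNA of whole cultures was sequenced, so a level of 50% can mean methylation of every copy in part of the cells or of part of the copies in every cell. Marker expression was not measured in these libraries, so the cell type and the genotype were not checked here.

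CpG islands are stretches of DNA rich in CpG dinucleotides that hold the promoters of most housekeeping and developmental genes. They are typically kept free of methylation, while islands of germline genes, imprinted control regions and islands inside gene bodies can be methylated by DNMT3A and DNMT3B and copied at replication by DNMT1 with UHRF1. Methylation rises across much of the genome as mESCs leave the ground state of pluripotency. SMCHD1 is a chromatin protein with roles in X inactivation, imprinting, clustered protocadherins and Hox clusters, and its oocyte supply acts before the embryo makes its own.

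The assay was RRBS (reduced representation bisulfite sequencing). An enzyme that recognises CCGG releases short fragments, and these are read after bisulfite treatment, which leaves methylated cytosines as C and turns others to T. A value is the percentage of methylated calls over an island in a library, as deposited. Every island compared held at least 1 CCGG site. The deposited table held no read counts, so the depth behind a value is unknown beyond the minimum of over 10 reads that the methods of the study state, and no counting interval is given.

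The reference sequence shows what such a measurement covers. For 5 islands described below, the 150 bases with the most CCGG sites outside annotated UTRs are given 5′ to 3′ on the plus strand of GRCm38.p6, with each CCGG, the site of cutting, in capitals. They come from the islands at Lrfn1 (chr7:28458910-28459059, 4 CCGG sites and 9 CpGs), Pax3 (chr1:78197135-78197284, 1 CCGG site and 9 CpGs), Rpn1 (chr6:88084531-88084680, 2 CCGG sites and 15 CpGs), Boll (chr1:55362782-55362931, 4 CCGG sites and 15 CpGs) and Ebf2 (chr14:67235599-67235748, 4 CCGG sites and 14 CpGs). They were chosen because a highly methylated island, a pair of germline and housekeeping promoters and a pair of developmental regulators near 0 are all among them. The reads of these F1 cells come from both parental genomes, and only the C57BL/6J reference is printed.
Lrfn1: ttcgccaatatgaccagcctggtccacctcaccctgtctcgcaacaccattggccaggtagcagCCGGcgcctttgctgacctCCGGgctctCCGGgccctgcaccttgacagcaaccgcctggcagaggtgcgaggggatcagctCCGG
Pax3: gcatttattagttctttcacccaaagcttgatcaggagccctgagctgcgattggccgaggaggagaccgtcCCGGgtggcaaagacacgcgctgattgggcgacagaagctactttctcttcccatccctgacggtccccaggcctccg
Rpn1: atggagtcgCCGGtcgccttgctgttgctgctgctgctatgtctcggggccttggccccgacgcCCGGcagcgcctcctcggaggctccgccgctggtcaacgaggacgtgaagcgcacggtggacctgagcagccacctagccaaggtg
Boll: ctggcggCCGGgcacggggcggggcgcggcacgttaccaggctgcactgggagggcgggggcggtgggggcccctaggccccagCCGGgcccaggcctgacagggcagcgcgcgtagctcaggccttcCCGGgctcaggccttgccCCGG
Ebf2: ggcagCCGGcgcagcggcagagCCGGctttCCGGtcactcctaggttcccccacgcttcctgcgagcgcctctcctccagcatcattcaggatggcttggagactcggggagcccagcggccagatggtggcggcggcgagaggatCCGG

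Islands of Smchd1 matΔ cells stayed close to unmethylated through this step. At day 2 the mean over the 7454 islands was 1.59% in line 1 and 1.46% in line 2, and at day 2.5 it was 1.55% in line 1 and 1.38% in line 2. The group means were 1.53% ± 0.0939 at day 2 and 1.47% ± 0.116 at day 2.5 (SD, n = 2 lines each). The 2 lines stood further apart than the days did within either line. In both lines the mean was lower at day 2.5, by -0.0459 points in line 1 and -0.0774 points in line 2, an average of -0.0617 ± 0.0223 (SD, n = 2). With 2 lines an exact sign-flip permutation test cannot give a p below 0.5, which is the p here. The Smchd1 wt lines differed by -0.0210 and -0.0312 between the same days, and the genotypes' changes did not overlap (two-sided exact permutation p = 0.33, the smallest that 2 lines against 2 can give). The median of the change averaged over the matΔ lines was 0, with 3218 islands higher, 3436 lower and 800 unchanged. With so many values at or near 0, that median cannot decide whether the typical island shifted.

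Most islands held very little methylation in either harvest. The median level was 0.302% and 0.317% in lines 1 and 2 at day 2, and 0.267% and 0.284% at day 2.5. In all, 4118 islands (55.2%) were under 1% in each of the 4 matΔ libraries and 777 were listed at 0 in all 4. The share of islands listed at 0 was 38.3% and 36.5% in lines 1 and 2 at day 2, and 42.7% and 39.5% at day 2.5. Both lines had more islands at 0 at the later day, whereas in the Smchd1 wt lines the shares were 40.9% and 36.4% at day 2 and 31.5% and 40% at day 2.5. Read depth also moves that share and its part was not tested. An island at 0 in both lines at day 2 was above 0 in both at day 2.5 in 205 cases, and the opposite was seen in 293. At the other end, 40 islands averaged over 50% over the matΔ libraries.

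No single island passed the test. In limma, with cell line as a block and Benjamini-Hochberg adjustment over 7190 islands whose values were not constant, 0 islands (0%) had an adjusted p under 0.05 for day 2.5 against day 2 in Smchd1 matΔ, and the smallest adjusted p was 0.950. Without adjustment, 262 islands had a p under 0.05, of which 119 were higher and 143 lower at day 2.5. For the difference between the matΔ change and the wt change, 0 islands (0%) passed in limma, the smallest adjusted p was 0.874 and 251 islands had an unadjusted p under 0.05. When the days were not paired by line, which leaves 4 residual degrees of freedom in place of 2, limma again called 0, with a smallest adjusted p of 0.144 and 318 islands under 0.05 without adjustment. Across all islands, 10.8% had both day 2.5 libraries above both day 2 libraries and 12.7% had both below.

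The 2 lines seldom showed the same islands at a different level. Line 1 had 70 islands that differed by at least 10 points between the days and line 2 had 62. Between the lines at the same day there were 77 such islands at day 2 and 83 at day 2.5. Pearson's r between the change in line 1 and the change in line 2 was -0.0652 across 7454 islands, and Spearman's rho was 0.00921. These are descriptions across islands that share a library, and most lie so near 0 that their order holds little. Among the 289 islands with a mean of 5% or more in the Smchd1 wt libraries, r was -0.113. An island at least 5 points higher in both lines was found 12 times (0.161% of islands), an island at least 5 points lower in both lines 30 times (0.402%), and 40 islands differed by at least 5 points in opposite directions. In Smchd1 wt the same counts were 19, 16 and 41. The balance of higher and lower islands depended on the limit: at 2 points it was 47 and 85 in matΔ and 54 and 60 in wt, and at 10 points it was 4 and 5 in matΔ and 3 and 5 in wt. The difference between the genotypes in these counts was not tested.

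**Figure D1:**
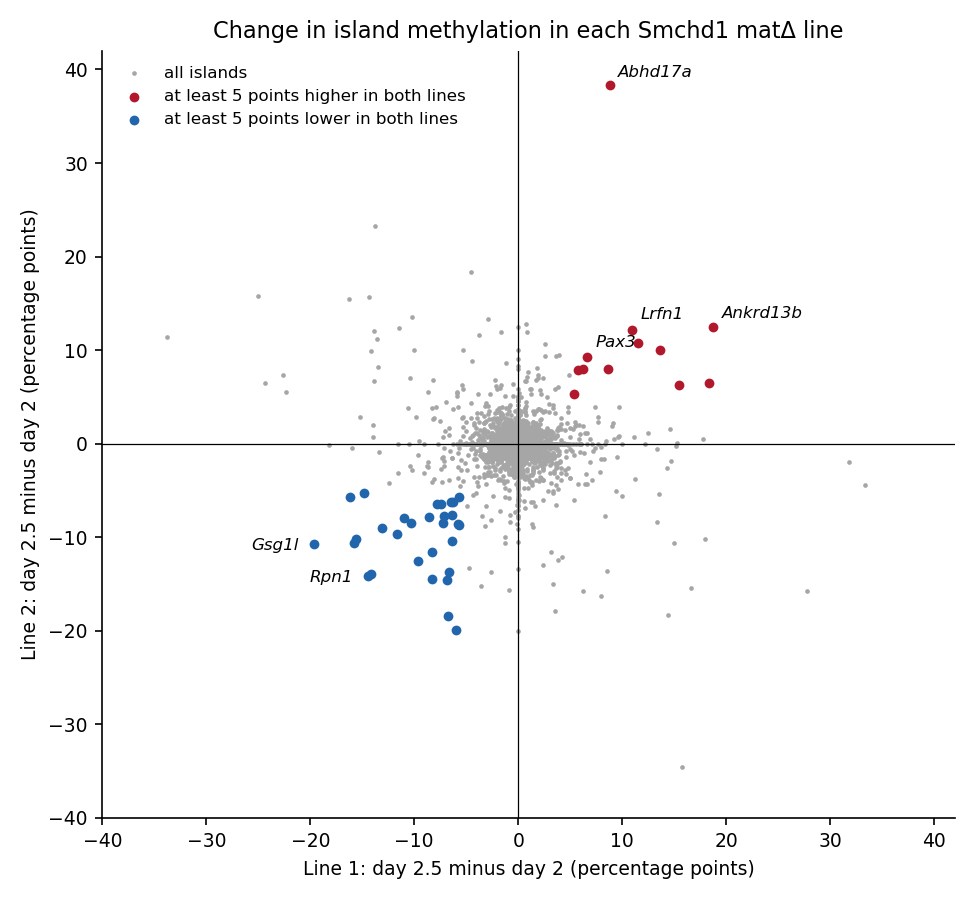
Each point is 1 of 7454 autosomal CpG islands, with the day 2.5 minus day 2 difference in percentage points in Smchd1 matΔ line 1 on the x axis and in line 2 on the y axis. The cloud has no tilt (r = -0.0652), 12 islands (red) lie at least 5 points up and 30 (blue) at least 5 points down in both lines, and 6 islands are labelled by gene.

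Concordant islands lay mostly inside genes and were partly methylated, but islands that differed in opposite directions had a similar profile. Of the 30 lower at day 2.5, 17 lay within a gene away from any annotated transcript start and 11 held the start of a protein-coding transcript; of the 12 higher, 8 lay within a gene and 3 held a coding start. Over all islands 6431 of 7454 held a coding start. Their median level in Smchd1 wt was 15.1% for the lower set and 8.21% for the higher set. Islands under 5% in wt made up 4 of the 30 and 3 of the 12. Their lengths were ordinary or short, with medians of 557 and 745 bp, and both sets had fewer CCGG sites than usual, with medians of 7 and 7.5 against 11 over all islands. Fewer sites give fewer reads and a coarser value, and the part of that in these differences was not tested. Of the 40 islands that differed by at least 5 points in opposite directions, 35% held a coding start and 75% had 5% or more in wt. Their medians were 585 bp and 7 CCGG sites. These traits therefore do not mark a change shared by the lines. The limit itself selects for level, since an island near 0 cannot be 5 points lower. Of the 30 lower islands, 8 (26.7%) were also lower in both wt lines, where 16.6% of all islands were, and 3 were higher in both. Of the 12 higher islands, 4 were also higher in both wt lines, where 17.1% of all islands were, and 3 were lower in both. The shares over all islands are not a like base for these sets. Most islands lie near 0, and 1500 and 1645 of the 7454 had no change in wt lines 1 and 2. No share was taken over islands of like level, so an excess cannot be read from these counts.

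Among the islands higher at day 2.5 in both lines, the widest shared step was at Ankrd13b, which encodes an ankyrin repeat protein. This island in a coding exon of Ankrd13b (chr11:77471491-77471906) stood at 14.6% and 12.5% in lines 1 and 2 at day 2, then 33.3% and 25% at day 2.5. Every day 2.5 value was above every day 2 value (limma change 15.6 ± 5.95 SE, adjusted p = 0.950). In wt it stood at 13.2% and 15.0%, then 7.42% and 16.7%. Lrfn1, a synaptic adhesion protein, had an island over its coding sequence (chr7:28458766-28459719) that was mostly methylated, at 82.8% and 72.7% at day 2 and 93.8% and 84.9% at day 2.5. The wt lines showed the same step there, from 79.2% and 70.8% to 92.0% and 80.0%, and the difference between the genotypes' changes was 0.590 ± 2.41 (limma SE, adjusted p = 0.995). Lrfn1 was thus higher at day 2.5 in 4 of 4 lines.

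Abhd8 and Abhd17a encode alpha/beta hydrolase domain proteins. The Abhd8 island, in coding sequence (chr8:71461442-71461908), was at 6.67% and 9.80% at day 2, then 18.2% and 20.5% at day 2.5. The Abhd17a island, which holds a coding transcript start (chr10:80586523-80586986), was at 36.7% and 30.8% at day 2, then 45.5% and 69.1% at day 2.5. Line 2 carries most of that difference, and the wt lines were also higher at day 2.5 there, at 38.2% and 50% after 27.3% and 38.9%. Frmpd1, a FERM and PDZ domain protein, had a promoter island (chr4:45184552-45185385) listed at 0 in both lines at day 2, then 13.6% and 10% at day 2.5. In wt it was at 2.94% and 0% at day 2, then 1.85% and 13.3% at day 2.5, so that a level over 10% also appeared in 1 of the 2 wt lines. An island in a coding exon of Oprd1, the delta opioid receptor (chr4:132113503-132113980, nearest transcript start Gm37711), was at 4.76% and 3.24% and then at 23.1% and 9.72%. An island in an intron of Gm20388 (chr8:121089352-121089790, nearest transcript start Gm27530) was at 8.83% and 7.89% and then at 17.5% and 15.9%. At the Oprd1 island both wt lines were lower at day 2.5, at 7.17% and 8.19% after 8.69% and 10.3%, and at the Gm20388 island the wt lines went opposite ways.

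Developmental regulators were among them, with Pax3 described here and En1 under the neural list. PAX3 is a paired-box factor of the dorsal neural tube, neural crest and muscle precursors, and the sequence of its island is printed above. The island over its start (chr1:78196632-78197287) was listed at 0 in both matΔ lines at day 2, then 6.67% and 9.26% at day 2.5, against 1.85% and 2.22%, then 1.59% and 0%, in wt. The limma change was 7.96 ± 0.955 (SE), with an unadjusted p of 0.000725, an adjusted p of 0.950 paired by line and 0.212 unpaired. The lines did not overlap between the days, and the difference from the wt change was 9.21 ± 1.35 (SE, limma adjusted p = 0.874).

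Among the islands lower at day 2.5 in both lines, the promoter island of Rpn1 came first. RPN1 is a subunit of the complex that attaches sugars to new proteins in the endoplasmic reticulum. The island (chr6:88084339-88085119) was at 22.1% and 14.1% in lines 1 and 2 at day 2, then 7.69% and 0% at day 2.5 (limma change -14.3 ± 2.43 SE, adjusted p = 0.950). It was lower at day 2.5 in wt too, at 8.11% and 2.50% after 15.5% and 13.8%, and so in 4 of 4 lines. An island over coding sequence of Chst8, a carbohydrate sulfotransferase (chr7:34675221-34676208, nearest transcript start Gm12756), showed the same in 4 of 4 lines. In matΔ it was at 28.1% and 26.1%, then 13.9% and 12.1%, and in wt at 28.2% and 28.6%, then 8.89% and 17.9%.

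Gsg1l, an accessory subunit of AMPA-type glutamate receptors, was lower at day 2.5 in both matΔ lines and in neither wt line. Its promoter island (chr7:126081564-126082550) was at 23.5% and 14.3% at day 2, then 3.85% and 3.57% at day 2.5. The wt lines were at 6.67% and 17.9% at day 2, then 7.14% and 20% at day 2.5. The difference between the changes was -16.5 ± 5.08 (limma SE, adjusted p = 0.874), which does not pass the test. An island in an intron of Jarid2, a partner of Polycomb repressive complex 2, was at 40.4% and 38.8% at day 2, then 24.6% and 28.2% at day 2.5. It lies at chr13:44869609-44870077, 28826 bp from the nearest start. Its wt lines went opposite ways, from 24.3% to 36.4% and from 46.9% to 26.0%.

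Boll, a germ-cell RNA-binding protein of the DAZ family, has a promoter island that was partly methylated (chr1:55362482-55363657). It was at 37.1% and 43.3% at day 2, then 25.5% and 33.6% at day 2.5 in matΔ, and at 46.2% and 35.2%, then 33.1% and 42%, in wt. The limma change was -10.7 ± 19 (SE, adjusted p = 1), where the SE is moderated towards the trend over islands of like level and is wider than the gap between the changes of these 2 lines. The wt lines went opposite ways. An island over coding sequence of Cacna1b, a neuronal calcium channel (chr2:24678984-24679525, nearest transcript start Gm13459), was at 55.3% and 47.7%, then 39.7% and 37.5% (-12.9 ± 19.2, moderated limma SE). Repin1, a zinc finger protein, had a coding-exon island (chr6:48596934-48597805) at 53.0% and 38.2%, then 43.3% and 25.6%, whose day 2 and day 2.5 libraries overlapped. The island in the coding exon of P2ry2, a receptor for extracellular nucleotides (chr7:100998531-100999021), was at 71.4% in both lines at day 2, then 58.3% and 62.4% at day 2.5.

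**Figure D2:**
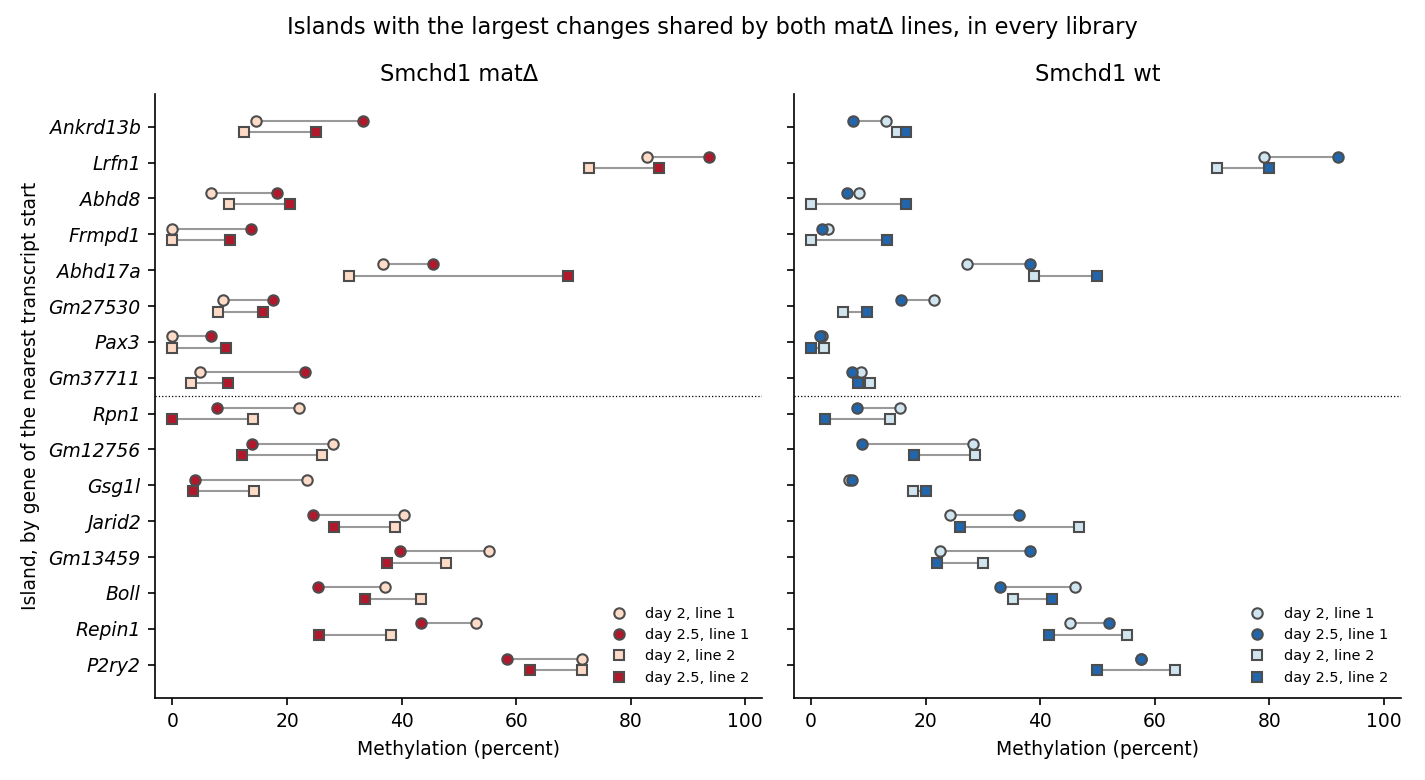
Methylation in percent (x axis) of the 8 islands highest and the 8 lowest by the smaller of the 2 matΔ line differences (y axis), in Smchd1 matΔ (left) and Smchd1 wt (right). Pale symbols are day 2, dark symbols day 2.5, circles line 1 and squares line 2. Lrfn1, Abhd17a, Rpn1 and Gm12756 show the same direction in all 4 lines, while Pax3, Gsg1l and Gm37711 (the Oprd1 island) show it in the matΔ lines and in neither wt line.

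By unadjusted p the 3 leading islands for the matΔ change were those at Ebf2, Lmo1 and Pax3, the last given above. EBF2 is a helix-loop-helix factor of neurons and brown fat. An island over a noncoding exon part of Ebf2 (chr14:67235404-67236476) was at 3.85% and 4.55% at day 2 and was listed at 0 in both lines at day 2.5 and in all 4 wt libraries (limma change -4.20 ± 0.431 SE, unadjusted p = 0.000377, adjusted p = 0.950). Another Ebf2 island (chr14:67233319-67233850) did not repeat this in both lines, at 0% and 5.88%, then 0% in both, in matΔ. In wt it was at 0% in both lines, then 5% and 0%. LMO1, a LIM-only transcriptional cofactor, showed the mirror image of the first Ebf2 island. Its island (chr7:109174701-109175336) was listed at 0 in both lines at day 2 and in all 4 wt libraries, and at 3.33% and 4.17% in matΔ at day 2.5 (limma change 3.75 ± 0.436 SE, adjusted p = 0.950). For the difference from wt, Isl2, a LIM-homeodomain factor of motor neurons, had the smallest p. Its island (chr9:55545461-55546720) was at 3.92% and 0%, then 6.67% and 1.67%, in matΔ and at 5% and 6.67%, then 0% and 0%, in wt (limma difference 8.04 ± 1.08 SE, adjusted p = 0.874). Cmpk2, a mitochondrial nucleotide kinase (chr12:26469172-26469850), was at 0% and 3.33%, then 3.70% and 4.76%, in matΔ and at 8.33% and 6.67%, then 2.38% and 0%, in wt (limma difference 8.88 ± 1.25 SE, adjusted p = 0.874). The values at these islands lie under 10%, where a few reads decide a level.

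The change was then read against the level that islands had in the Smchd1 wt libraries, which are outside the comparison. The 6149 islands under 1% in wt were at 0.432% and 0.430% at day 2, then 0.442% and 0.410% at day 2.5, a mean change of -0.00494 ± 0.0216 (SD, n = 2 lines). The lines went opposite ways in that class, as did the wt lines. The 1016 islands of 1 to 5% were lower in both lines, by -0.0954 and -0.326 points. The 198 islands of 5 to 20% were also lower in both, by -0.672 and -0.252 points, as were the wt lines, by -0.694 and -0.288 points. With libraries scaled to the same mean, the matΔ average of this class went from -0.462 to -0.0420 points. The matΔ and wt lines overlapped in these 2 classes (exact permutation p = 0.667 in each).

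At intermediate levels the average depended on scaling. The 53 islands of 20 to 50% in wt were at 37.9% and 30.9% in matΔ lines 1 and 2 at day 2, then 35.3% and 29.7% at day 2.5, with changes of -2.57 and -1.21 points and an average of -1.89 ± 0.963 (SD, n = 2), which was -0.470 with libraries scaled to the same mean. Of these islands 9 (17.0%) were at least 5 points lower in both lines and 1 (1.89%) was at least 5 points higher, against 0.402% and 0.161% of all islands. By the same limit 3 were lower and 4 higher in both wt lines. Values in this class vary widely. The root mean square difference between the matΔ lines was 13.4 points at day 2 and 15.7 points at day 2.5. The split of 9 and 1 was not tested. The wt lines were split, at -1.5 and 2.06 points (exact permutation p = 0.667). The 38 islands of 50% and over were at 80.4% and 75.8% at day 2, then 79.4% and 75.6% at day 2.5, with changes of -1.04 and -0.214 points, a direction that flipped to 2.61 points on average when libraries were scaled to the same mean. In wt these were 0.283 and 0.0252 points without scaling, so that the genotypes' unscaled changes did not overlap (exact permutation p = 0.33, the smallest possible). Scaling leaves the wt changes above 0, so the average directions of the genotypes no longer differ once libraries are scaled.

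Position in the genome separated the islands in a similar manner, since methylated islands lie mostly away from promoters. Islands that held the start of a protein-coding transcript (6431) were at 0.764% and 0.741% at day 2, then 0.759% and 0.689% at day 2.5. Those that held only other starts (303) differed by 0.0398 and -0.0491 points. Islands within genes but away from starts (544) were at 8.08% and 6.66% at day 2, then 7.62% and 6.36% at day 2.5, lower by -0.459 and -0.300 points. Their average of -0.380 was -0.0791 with libraries scaled to the same mean, and the median change was 0. Islands outside genes (176) were at 11% and 10.6%, then 10.6% and 10.2%, lower by -0.431 and -0.334 points, though the mean was 0.0651 with libraries scaled to the same mean. Without scaling, the wt lines were split in direction in both of these classes, at -0.0771 and 0.207 points within genes and at -0.271 and 0.180 points outside genes (exact permutation p = 0.33 each). Over the 135 islands within genes that had 5% or more in wt, the matΔ lines differed by -1.20 and -0.584 points. At the same level, the 99 islands with a coding start differed by -0.914 and -0.325 points (wt -1.42 and -1.22) and the 35 outside genes by -1.79 and -0.113 points.

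**Figure D3:**
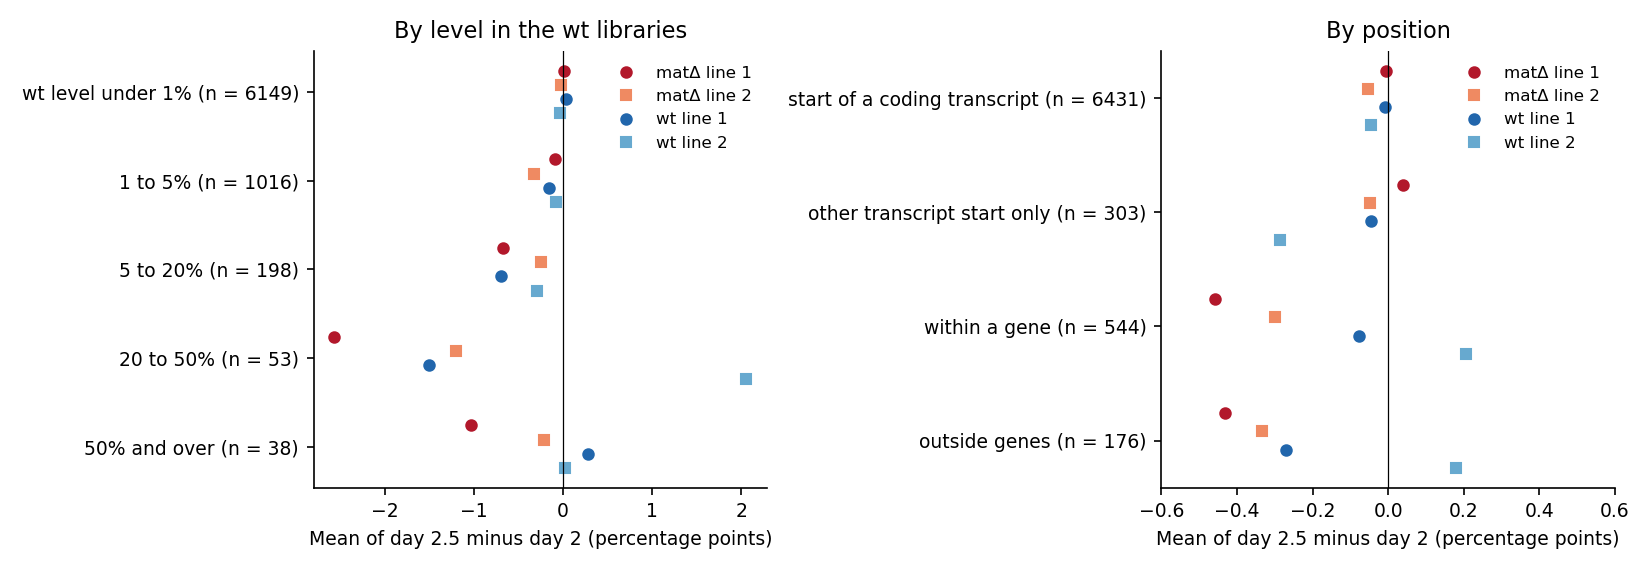
Mean difference between day 2.5 and day 2 in percentage points (x axis) for islands grouped by their level in the Smchd1 wt libraries (left) or by position (right), with 1 point for each of the 2 matΔ and 2 wt lines. Values are unscaled. The matΔ lines lie below 0 in each level class of 1% and over, and within and outside genes. The wt lines straddle 0 in the class of 20 to 50%, within genes and outside genes. Scaling libraries to the same mean puts the matΔ average above 0 in the class of 50% and over (2.61) and outside genes (0.0651). Scaled values of single lines and of wt are not shown, so the contrast between genotypes holds for unscaled values only.

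On the chromosomes the pattern was diffuse. The mean was lower at day 2.5 in both matΔ lines on 10 of 19 autosomes and higher in both on 1, chromosome 3, where the lines differed by 0.156 and 0.0651 points. In both wt lines it was lower on 7 autosomes, and in all 4 lines on 3. Chromosome 15 had changes of -0.132 and -0.206 points and chromosome 19 of -0.279 and -0.0537 points. Chromosomes 3, 15 and 19 were named after their values were seen.

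Gene lists that fit the step from mESC to NMP were then described. Of the 26 pluripotency genes listed, 14 had an island with a value, and their 15 islands were at 0.722% and 0.691% at day 2, then 1.25% and 1.01% at day 2.5. The median change was 0, and without the island of Foxd3 the other 14 differed by 0.295 and -0.0871 points in lines 1 and 2. Foxd3, a forkhead repressor of pluripotent cells and neural crest, was listed at 0 in both lines at day 2, then 3.85% and 6.06% at day 2.5 (chr4:99655912-99658098; limma change 4.95 ± 1.56 SE, adjusted p = 0.950). The most methylated island was that of Esrrb, a nuclear receptor of the naive state (chr12:86421660-86422902), at 4.72% and 5.81%, then 7.94% and 7.09%. Sox2, a core factor of both pluripotent and neural cells, was at 0.211% and 0.250% at day 2 and listed at 0 at day 2.5. In this list 2 islands had both day 2.5 libraries above and 4 had both below the day 2 libraries (13.3% and 26.7%). Over all islands these shares were 10.8% and 12.7%.

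Islands of the 13 primed epiblast entries averaged 1.17% and 0.568% at day 2 and 0.370% and 0.592% at day 2.5, with the lines split in direction. At Grhl2, an epithelial factor (chr15:37232988-37234582), the values were 1.38% and 1.26%, then 0.535% in both lines. The wt lines were lower there too, at 0.535% and 1.04% after 2.73% and 1.22%. Otx2, a factor of primed epiblast and forebrain (chr14:48664943-48665572), was at 6.67% and 2.08%, then 0% and 3.03%, and the lines went opposite ways.

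The 24 islands of NMP, primitive streak and Wnt pathway genes bear on the step most directly, since Wnt signalling was switched on at day 2. They averaged 0.959% and 1.22% at day 2 and 0.704% and 1.23% at day 2.5. The line 2 mean at day 2.5 rested on the island of Rspo3, at 12.5% there and listed at 0 in the other matΔ libraries. Without Rspo3 the other 23 islands differed by -0.266 and -0.533 points in lines 1 and 2. Of the 24 islands, 21 were under 5% in all 4 matΔ libraries. The one with the widest shared step was Sfrp5, a secreted Wnt antagonist (chr19:42201464-42202340), at 8.36% and 5.11% at day 2, then 1.02% in both lines at day 2.5 (limma change -5.71 ± 1.09 SE, adjusted p = 0.950). In wt it was at 3.62% and 3.50%, then 2.98% and 1.10%, lower in both lines as well. Evx1, a homeobox factor of the primitive streak (chr6:52313448-52314303), was at 1.19% and 7.77%, then 4.96% and 4.21%, with opposite directions in the lines. The Wnt effector Tcf7 was at 0.453% and 0.325%, then 0.275% and 0%.

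Neural transcription factor islands were higher at day 2.5 on average in both lines. Their 54 islands were at 1.11% and 1.21% at day 2, then 1.5% and 1.52% at day 2.5, changes of 0.386 and 0.312 points (wt 0.146 and -0.181, exact permutation p = 0.33). The median change was 0, and counts of non-overlapping islands were 7 above and 7 below (13% each), close to the 10.8% and 12.7% over all islands. An unadjusted limma p under 0.05 was reached by 6 of the 54, and by 262 of 7190 overall. Among them were Pax3 and Ebf2, described above, En1, Gsx1 and Neurod1. En1, a homeobox factor of the midbrain-hindbrain boundary, had a coding-exon island (chr1:120602844-120603990) at 3.92% and 7.14%, then 9.70% and 15.0%. For Gsx1, a homeobox factor of the developing brain and spinal cord, 1 of the 2 islands was at 0% and 2.11%, then 5.45% and 4%. Neurod1, a factor of neuronal differentiation, was at 1.33% and 4%, then 0% in both lines. Of these 5 islands, Ebf2 and Neurod1 were lower at day 2.5 in both lines, and Pax3, En1 and Gsx1 were higher.

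Mesoderm and endoderm factors had 38 islands, with changes of -0.461 and 0.392 points. The island in the intron of Nkx2-5, a cardiac homeobox factor, stood out by its level (chr17:26844183-26844781). It was at 61.7% and 73.3% at day 2, then 53.1% and 65.4% at day 2.5, and the wt lines were at 52.6% and 67.3%, then 53.3% and 43.2% (limma change -8.21 ± 12.0 SE, adjusted p = 1). Gata2, a blood and endothelial factor, had 2 islands, and the more methylated was at 7.55% and 10.6%, then 13.5% and 11.6%.

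The Hox clusters encode the homeobox factors that pattern the body axis. The 22 islands at Hox starts averaged 1.09% and 1.33% at day 2 and 1.13% and 1.05% at day 2.5, changes of 0.0383 and -0.281 points, and 19 were under 5% in all 4 matΔ libraries. Hoxd9 had the widest shared step (chr2:74697731-74698814), at 2.88% and 3.31% at day 2 and listed at 0 in both lines at day 2.5 (limma change -3.10 ± 0.440 SE, unadjusted p = 0.00146, adjusted p = 0.950). In wt it was at 1.49% in both lines and then at 0.962% and 0.893%, lower as well. Hoxa9 had the highest mean (chr6:52225257-52226313), at 8.97% and 6.62%, then 1.11% and 10.6%, and the lines disagreed in direction. In this list 3 islands (13.6%) had both day 2.5 libraries above those of day 2 and 2 (9.09%) had both below. Over all islands these shares were 10.8% and 12.7%. Among the anterior genes, the island at Hotairm1 was at 0% and 0.476%, then 0.794% and 0.796%, and that of Hoxa4 at 1.13% and 1.05%, then 0.919% and 0.546%.

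Germline gene promoters are the classic islands that are methylated in somatic cells. The 10 measured averaged 17.2% and 18.0% at day 2 and 14.5% and 16.7% at day 2.5, lower by -2.62 and -1.25 points, while the wt lines differed by -3.09 and 0.837 points (exact permutation p = 1). In this list 3 islands (30.0%) had both day 2.5 libraries below those of day 2 and 0 had both above, where 12.7% and 10.8% of all islands did. Sycp1, a component of the synaptonemal complex (chr3:102935375-102936230), was the most methylated at 79.7% and 80.0%, then 77.8% and 83.3%. Boll, given above, had the widest shared step, and the other 9 islands averaged -0.960 points. Meioc, a meiotic regulator, was at 33.3% and 19.3%, then 25% and 15.2%, and Dazl, of the same family as Boll, was at 2.38% and 1.19%, then 0% and 1.11%.

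SMCHD1 is known for imprinted and protocadherin clusters, so these were listed as well. The 26 islands at starts of imprinted genes averaged 2.89% and 2.48% at day 2 and 2.57% and 1.92% at day 2.5, lower by -0.327 and -0.564 points, against -0.215 and 0.294 in wt (exact permutation p = 0.33). An island near an imprinted gene is not necessarily its imprinted region. The lower mean rested on 1 island, that of the imprinted noncoding RNA gene Peg13 (chr15:72809538-72810123), and the other 25 islands differed by -0.102 and 0.212 points in lines 1 and 2. Peg13 had the highest mean and the widest shared step of the list. It was at 18.2% and 21.9% at day 2, then 12.2% and 1.96% at day 2.5, and in wt at 2.38% and 5.88%, then 0% and 1.39% (limma change -13 ± 3.69 SE, adjusted p = 0.950). Phlda2, a placental growth regulator, was at 1.39% and 1.96%, then 3.52% and 4.47%. Airn, the RNA that silences Igf2r in cis, was at 6.67% and 9.46%, then 20.2% and 4.05%, with the lines in opposite directions. Of the clustered protocadherins, cell-surface proteins that give neurons their identity, 3 islands were measured. Pcdhgb2 (chr18:37691459-37691947) was at 34.4% and 15.2%, then 12.0% and 20.7%, and again the lines went opposite ways.

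Chromatin regulators and housekeeping genes had uniformly low islands. The DNA methylation machinery averaged 0.643% and 0.457% over 23 islands at day 2 and 0.566% and 0.622% at day 2.5, and the highest of them was Uhrf2 (chr19:30029915-30031343), at 5.15% and 3.41%, then 4.17% and 2.63%. Polycomb genes averaged 0.6% and 0.502% over 40 islands at day 2 and 0.671% and 0.491% at day 2.5. The promoter island of Jarid2 (chr13:44729661-44731359), unlike the one in its intron, was at 0.914% and 1.01%, then 0.479% and 0.275%. E2f6, a repressor of germline genes (chr12:16810838-16811523), was at 4.97% and 1.40%, then 1.75% and 5.41%. The 22 housekeeping islands averaged 0.258% and 0.301%, then 0.259% and 0.484%, and none reached 5% in any matΔ library. Actb (chr5:142905577-142906846) was at 0.512% and 0%, then 1.43% and 0.538%, and Rplp0 (chr5:115559264-115560078) was listed at 0 in 3 of the 4 libraries and at 2.78% in line 2 at day 2.5.

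**Figure D4:**
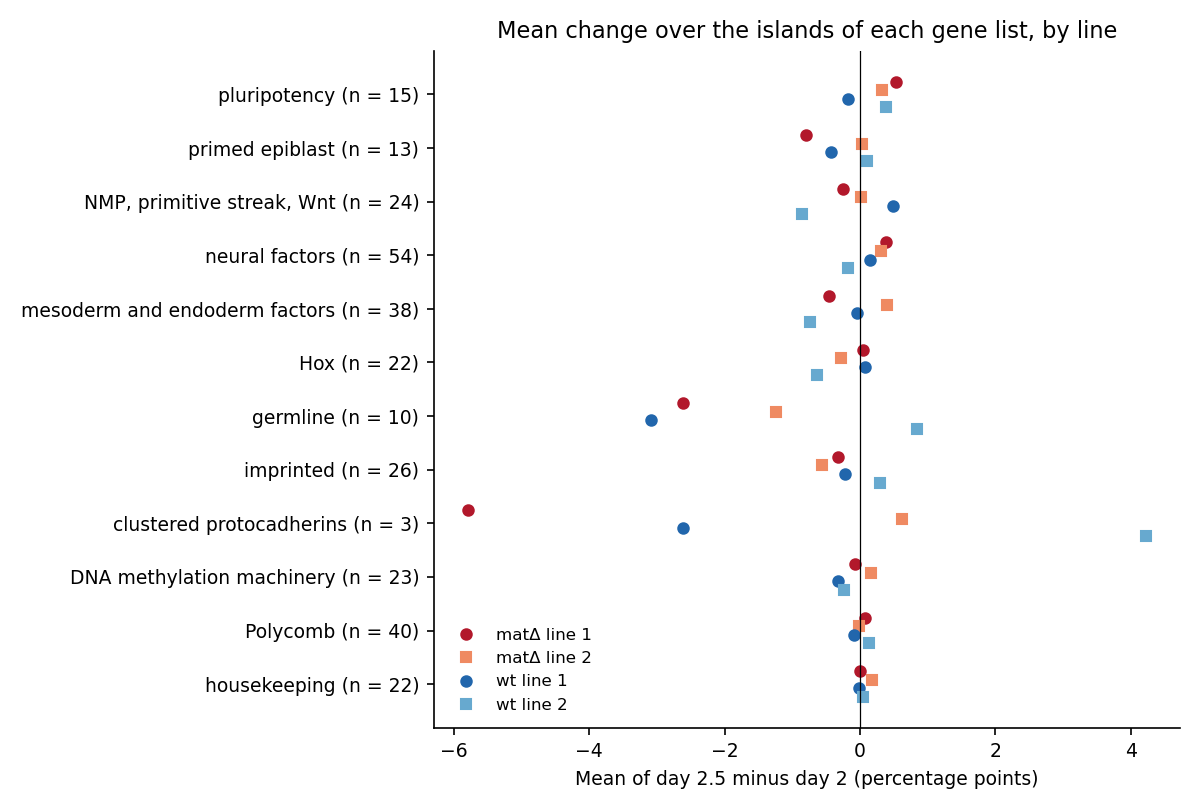
Mean difference between day 2.5 and day 2 in percentage points (x axis) over the islands of each of 12 gene lists (y axis, with the number of islands), with 1 point for each of the 2 matΔ and 2 wt lines. Pluripotency and neural islands lie above 0 and germline and imprinted islands below 0 in both matΔ lines, and in none of these 4 lists do both wt lines lie on the same side. Housekeeping islands show this pattern too, at 0.00124 and 0.183 points in matΔ lines 1 and 2 and -0.0103 and 0.0488 points in the wt lines. Without 1 island each, Peg13 and Foxd3, the imprinted and pluripotency lists have the matΔ lines on opposite sides of 0.

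The islands of the highest mean stayed methylated. An island in an intron of Nrg1, a growth factor of heart and nerve (chr8:32853310-32853750), was at 96.7% and 93.6% at day 2, then 97.6% and 95.3% at day 2.5. In wt it was at 95% and 94.2%, then 92.6% and 91.4%, and the difference between the changes was 3.91 ± 0.610 (limma SE, adjusted p = 0.874). The island at the start of the noncoding gene Gm42959 (chr6:3190228-3190746) was at 92.7% and 91.1%, then 95.1% and 98.0%, the island nearest to Olfr459, outside genes (chr6:41807208-41807852), at 93.6% and 89.1%, then 95.5% and 96.1%, and the island in an intron of Gm4856 (chr3:59518304-59519160) at 88.8% and 94.2%, then 95% and 96.0%. Celsr1, a planar polarity cadherin, had a coding-exon island (chr15:86031209-86031677) at 88.9% and 100%, then 90.6% and 96.2%. Apart from Celsr1 in line 2, these 5 islands were higher at day 2.5 in both matΔ lines, whereas the mean of the class of 50% and over was lower, or higher when libraries were scaled to the same mean.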

How the data were processed

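RRBS was performed by the authors on genomic DNA of 8 libraries in 4 groups, and groups and line numbers were taken from the labels. The authors trimmed reads with TrimGalore and cutadapt 1.15, aligned them with Bismark 0.20.0 to GRCm38.p6 and computed methylation over features in SeqMonk, keeping islands with over 10 reads in all libraries, per the methods and processing notes. What was deposited is the percent of methylated calls in each island, library by library, with no scaling stated. Depth is unknown, and few reads make a value coarse. The second of 2 deposited tables, of Hox islands, repeats part of the first and was not used.

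Islands were annotated with GENCODE release M21 and named by the nearest transcript start, and a list took islands within 2 kb of a start. The R package limma (3.58.1, under R 4.3.3) was applied to percent values with cell line as a block, day within genotype, 2 residual degrees of freedom, a variance trend and Benjamini-Hochberg adjustment, and tested on simulated data. The numbers pair the days because 1 line gave a library at each day. Across 7454 islands, the matΔ line difference at day 2.5 had r = 0.187 with the one at day 2, and the consensus correlation of libraries of a line was -0.00311. Nothing states that lines 1 and 2 are more than separate derivations. With the block, the limma p-values rest on how far the day changes of the lines of a genotype differ. That spread is pooled over both genotypes and moderated towards the trend. Means over islands were compared by exact permutation of lines (Python 3.11.15 with scipy 1.17.1). SD is over lines.

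Named islands are the 8 highest and 8 lowest by the smaller of the 2 matΔ line differences, those with the 3 smallest p in each contrast, in each of 12 gene lists the one with the widest shared difference and the one with the highest mean, and the 5 with the highest mean; the few others were chosen after their values were seen. The members and lists were chosen with earlier results of these data known. Alternatives were no block, a random line effect, and log2 of the ratio of methylated to unmethylated percentage, each plus 1 point. Others were a mean of at least 1%, robust moderation, scaling libraries to the same mean, only matΔ libraries, medians, a 5 kb window, 2 or 10 points, and leaving out a line. Chosen after seeing the data were leaving out 1 island of a list or islands with few CCGG sites. The labels give no batch. The values of 1 island counted in a list are not reported here.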

Additional observations from a re-analysis of the deposited data

Results flagged for a closer look

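Islands with a mean of 50% or more in the Smchd1 wt libraries were flagged because the genotypes went opposite ways in every line before scaling. The 38 islands were lower at day 2.5 in both matΔ lines, by -1.04 and -0.214 points, and higher in both wt lines, by 0.283 and 0.0252 points. The difference between the genotypes' mean changes was -0.779 points, and permuting the 4 lines exactly gave p = 0.33 (two-sided), which no pattern of 2 lines against 2 can undercut. The island classes were set on the wt libraries themselves. When libraries were scaled to the same mean over islands, the matΔ change in this class was 2.61 points, so its direction depends on the scaling. The wt changes stay above 0 under that scaling, since the mean over all islands was lower at day 2.5 in both wt lines. The genotypes' average changes therefore went opposite ways only without scaling. The difference was not tested in any other manner.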

How the results depend on the processing

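The count of islands called by limma was 0 in every alternative for both contrasts, with the block and without the replicate block (0 in the unpaired fit), and the smallest adjusted p in any of them was 0.144. Of the alternatives for the main values, 94 kept direction and size, 26 gave another size and 26 another direction, and the cause was not tested. Scaling libraries to the same mean brings the overall change to 0 by construction; by level it gave 0.0121 under 1%, -0.0420 at 5 to 20%, -0.470 at 20 to 50% and 2.61 at 50% and over, and by position 0.00109 at coding starts, 0.0811 at other starts, -0.0791 within genes and 0.0651 outside genes. It gave 0.132 for mesoderm and endoderm factors. The median change was 0 over all islands, within genes and for pluripotency and neural lists, -0.0348 outside genes, 0.218 for mesoderm and endoderm, 0.0623 for Hox, -0.491 for germline, -0.0137 for imprinted and -6.39e-05 for housekeeping islands. Islands with a mean of at least 1% gave -0.340 overall. Without the island of the widest change in each list, a choice made after seeing the data, the change was 0.104 for pluripotency, -0.400 for NMP and Wnt, 0.205 for neural, 0.186 for mesoderm and endoderm, 0.0201 for Hox, -0.960 for germline, 0.0552 for imprinted, 0.328 for protocadherin and -0.0107 for Polycomb islands. With a 5 kb window the change was 0.258 for neural, 0.235 for mesoderm and endoderm, 0.0654 for Hox and -0.166 for Polycomb islands.

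With 1 line left out, the change ranged from -0.0202 to 0.0103 under 1%, from -0.0491 to 0.0398 at other starts, from -0.802 to 0.0234 for primed epiblast, from -0.255 to 0.00964 for NMP and Wnt, from -0.461 to 0.392 for mesoderm and endoderm, from -0.281 to 0.0383 for Hox, from -5.79 to 0.617 for protocadherins, from -0.0767 to 0.165 for DNA methylation genes and from -0.0109 to 0.0708 for Polycomb islands. Single islands that then turned were Otx2 (-6.67 to 0.947), Evx1 (-3.55 to 3.77), Hoxa9 (-7.86 to 3.96), Sycp1 (-1.90 to 3.33), Pcdhgb2 (-22.4 to 5.54), E2f6 (-3.22 to 4.01) and Celsr1 (-3.85 to 1.74, and 2.79 when scaled). The lines also set the counts of concordant islands. At 2 points in each line, 47 islands were higher, 85 lower and 145 opposite, and at 10 points 4, 5 and 16. Among 5612 islands with at least 8 CCGG sites, a limit chosen after seeing the data, they were 6, 9 and 19.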

Other observations

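Pearson's r across 7454 islands, given as a description, was -0.0652 between the changes of the 2 matΔ lines and -0.0352 between those of the 2 wt lines. Across genotypes it was 0.0177 and 0.0397 between matΔ line 1 and wt lines 1 and 2, and 0.128 and 0.0916 between matΔ line 2 and wt lines 1 and 2. Over the 5 X-linked islands with a value, the mean was 22.3% and 21.2% in matΔ lines 1 and 2 at day 2 and 28.9% and 23.4% at day 2.5. In wt it was 24.3% and 23.5%, then 21.3% and 29.5%.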
